A study of Homo sapiens with 6 samples.

Results

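Genes of the amino acid response were followed in MDA-MB-231, an established triple-negative human breast cancer cell line, after silencing of SDC1, the gene for the heparan sulfate proteoglycan syndecan-1. The genes comprise ATF4 and its partner factors, stress genes that ATF4 induces, enzymes of serine, cysteine, asparagine, proline and folate metabolism, and cytosolic aminoacyl-tRNA synthetases. They were taken by name, 34 in all, and read through probe sets that the array annotation ties to a single gene. This left 33 members with a value, from 62 probe sets, out of 19775 genes tested. The methionyl-tRNA synthetase gene MARS1 was the exception: its 3 probe sets are annotated to several genes, and it was not analysed here.

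One group of 3 arrays came from cells transfected with an siRNA against SDC1 and the other group of 3 from cells transfected with a negative control siRNA. All 6 cultures were of the same line and all were transfected, and the series design describes the replicates as independent. No source used here gives the siRNA sequence, its dose or the hours between transfection and harvest. No other cell line and no untransfected culture was analysed here, and a difference between the groups does not say which of them moved. Values are the deposited ones, taken as log2 because RMA gives that scale, and each probe set's own median across arrays is 0: they show how arrays differ and give no levels. A log2 fold change is the mean of the SDC1 siRNA arrays minus that of the control arrays (n = 3 each), its standard error (SE) is that of limma, and p-values were adjusted by Benjamini-Hochberg over all 19775 genes. Called means an adjusted p of at most 0.05.

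ATF4 is a transcription factor whose messenger RNA is translated best when the initiation factor eIF2 is phosphorylated, as happens when cells run short of amino acids, misfold proteins in the endoplasmic reticulum, sense double-stranded RNA or lack heme. With C/EBP partners it binds composite C/EBP-ATF response elements (CARE) and raises genes that make, import and charge amino acids. In breast cancer the serine branch of this programme is known for the high expression of PHGDH in a part of estrogen receptor-negative tumours.

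The CARE core, the letters through which ATF4 is known to act, was looked for in the members' promoters. Promoter windows of 250 bases before to 50 after a start site, from RefSeq on GRCh38.p14, were found for 27 of the 34 members. No window was found for NUPR1, PSPH, SHMT2, PYCR1, LARS1, VARS1 and YARS1. The core TGATGNAA, searched on both strands, was present in a window of 10 of the 27 members, against 4.46% of the 27305 genes with a window and 3.62% of all 35116 windows. Its commonest spelling, TGATGCAA, a subset of these matches, was present in 8 of the 27 members and 1.08% of all genes. Here are the 10 matches with 10 bases on either side, read in the direction of the core, which is in capitals.

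CEBPG (chr19:33374061-33374088, plus strand): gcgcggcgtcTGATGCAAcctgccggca
CHAC1 (chr15:40953252-40953279, minus strand): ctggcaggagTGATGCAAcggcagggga
ASNS (chr7:97872459-97872486, minus strand): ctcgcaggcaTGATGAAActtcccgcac
AARS1 (chr16:70289676-70289703, plus strand): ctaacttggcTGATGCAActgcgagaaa
CARS1 (chr11:3057408-3057435, plus strand): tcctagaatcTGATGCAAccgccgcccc
GARS1 (chr7:30594835-30594862, minus strand): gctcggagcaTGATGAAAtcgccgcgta
IARS1 (chr9:92293693-92293720, plus strand): cgcacggaggTGATGCAAcgcgctgaaa
MARS1 (chr12:57488054-57488081, minus strand): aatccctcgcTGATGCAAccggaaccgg
NARS1 (chr18:57621805-57621832, minus strand): ctacgctctcTGATGCAAcgccggaatc
TARS1 (chr5:33440957-33440984, minus strand): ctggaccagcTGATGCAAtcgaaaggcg

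Of these 10 genes CEBPG, CHAC1, ASNS, CARS1, GARS1 and NARS1 were called lower after SDC1 siRNA. AARS1, IARS1 and TARS1 were not called, and MARS1 had no value. The called CARS1 and NARS1 and the uncalled AARS1, IARS1 and TARS1 had the same letters TGATGCAA, and 8 of the 10 matches had C as the base between TGATG and AA. Among the 15 called-lower members with a window 6 held the core, among the 8 uncalled members 3, and among the 3 called-higher members 0. The match began 209 bases before the start in CHAC1, 187 in AARS1 and 68 in ASNS. In the other genes it lay close to or over the start site: it began 2 bases before the start in CARS1, 4 in MARS1 and 13 in IARS1, and at base 15 of the transcript in NARS1. A match to letters is a description and not a measured binding site.

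**Figure D1:**
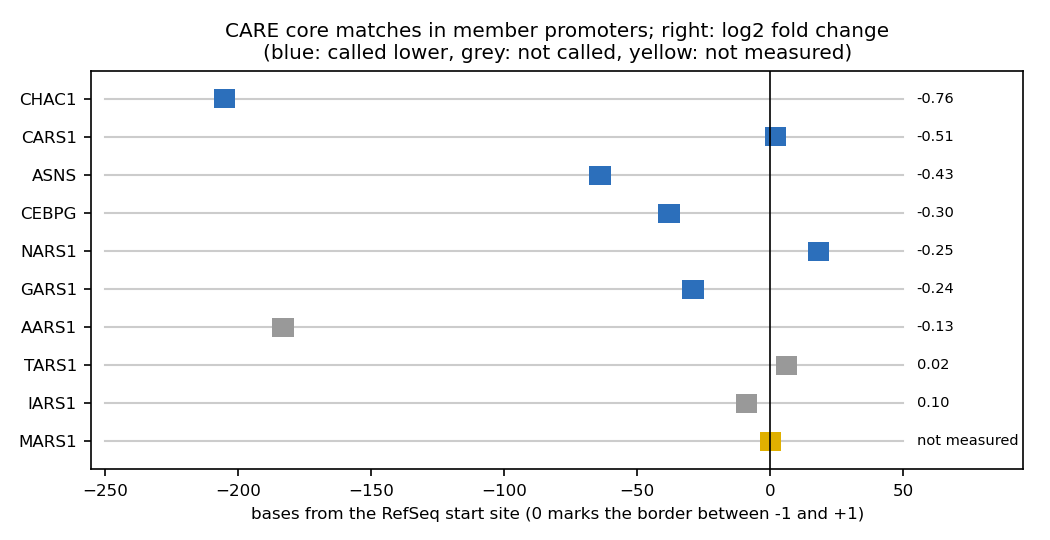
Position of each CARE core match (boxes, 8 bases wide) in the RefSeq promoter windows of 10 members, in bases from the start site, with the log2 fold change (SDC1 siRNA over control siRNA) at the right. Matches of called-lower genes (blue) begin from 209 bases before the start to base 15 after it, and the uncalled AARS1, TARS1 and IARS1 (grey) hold the core at similar distances.

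The 250 bases before the start are printed for 4 called-lower genes: CTH, CHAC1 and SESN2, the members of largest change, and ASNS, a classic target of the element. CHAC1 and ASNS hold the core (capitals; in CHAC1 it reads on the opposite strand), and CTH and SESN2 lack it in this window.

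CHAC1 (chr15:40953221-40953470, plus strand): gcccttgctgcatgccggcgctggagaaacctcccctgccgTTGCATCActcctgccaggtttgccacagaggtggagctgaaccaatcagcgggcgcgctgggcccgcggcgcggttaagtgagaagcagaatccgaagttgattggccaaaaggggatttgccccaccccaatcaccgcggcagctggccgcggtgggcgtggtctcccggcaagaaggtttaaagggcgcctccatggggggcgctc
ASNS (chr7:97872409-97872658, minus strand): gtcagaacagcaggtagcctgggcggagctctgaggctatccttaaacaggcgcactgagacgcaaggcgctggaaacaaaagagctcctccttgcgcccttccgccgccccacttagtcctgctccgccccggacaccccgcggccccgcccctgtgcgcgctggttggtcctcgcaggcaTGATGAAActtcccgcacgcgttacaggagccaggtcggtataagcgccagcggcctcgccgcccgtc
CTH (chr1:70411018-70411267, plus strand): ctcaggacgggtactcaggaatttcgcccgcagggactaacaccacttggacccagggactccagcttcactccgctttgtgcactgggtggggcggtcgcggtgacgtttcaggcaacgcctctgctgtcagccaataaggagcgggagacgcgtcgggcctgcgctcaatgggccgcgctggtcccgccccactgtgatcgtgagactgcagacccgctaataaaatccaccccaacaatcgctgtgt
SESN2 (chr1:28259268-28259517, plus strand): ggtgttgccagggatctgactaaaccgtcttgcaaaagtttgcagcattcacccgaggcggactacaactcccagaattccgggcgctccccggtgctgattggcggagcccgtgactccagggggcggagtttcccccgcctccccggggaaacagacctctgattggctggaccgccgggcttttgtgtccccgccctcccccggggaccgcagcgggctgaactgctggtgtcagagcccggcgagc

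The palindromic cAMP response element TGACGTCA was in none of the members' windows, against 2.25% of genes. The E-box CACGTG was in those of ATF4, ALDH18A1 and IARS1, 3 of 27 members, against 8.77% of genes.

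Across the members, expression was lower after SDC1 siRNA in most. Of the 33, 17 fell (51.5%), where 15.2% of all genes tested were called lower, and 4 rose (12.1%), where 13.0% of all genes were called higher. By a coarse class read from the steps between values, 31 of 33 members were placed in the class of log2 level 8 to 16. A dimmer probe set can also enter this class if its values happen to fall on the coarser steps. This brightest class is no measured level, and 23.3% of its genes were called lower and 18.1% higher. The share that rose was therefore no larger than the background. Of those 4, SARS1 has probe sets of opposite direction and PSPH rests on 1 probe set. Classes were read from the 3 highest of the 6 arrays, so a probe set can enter a gene value through the group where it is higher. The rising probe sets of SARS1 and PSPH entered only in this way. With brightness classes read from all 6 arrays 18 members were lower and 2 higher. The median log2 fold change of the members was -0.24, against 0.00 over all genes. The median over the members was 0.10, 0.11 and 0.10 in the control arrays and -0.10, -0.11 and -0.10 in the SDC1 siRNA arrays. Most changes were small: 5 members fell by 0.5 or more on the log2 scale, a size reached downward by 5.22% of all genes, and 1 member changed at least 2-fold. Called in either direction were 21 members, against 28.2% of all genes, and in none of the 21 did control and SDC1 siRNA arrays overlap. In all, 18 members had every SDC1 siRNA array below every control array, against 21.7% of all genes, and 6 the reverse, against 20.0%; together this order without overlap held for 41.8% of all genes.

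**Figure D2:**
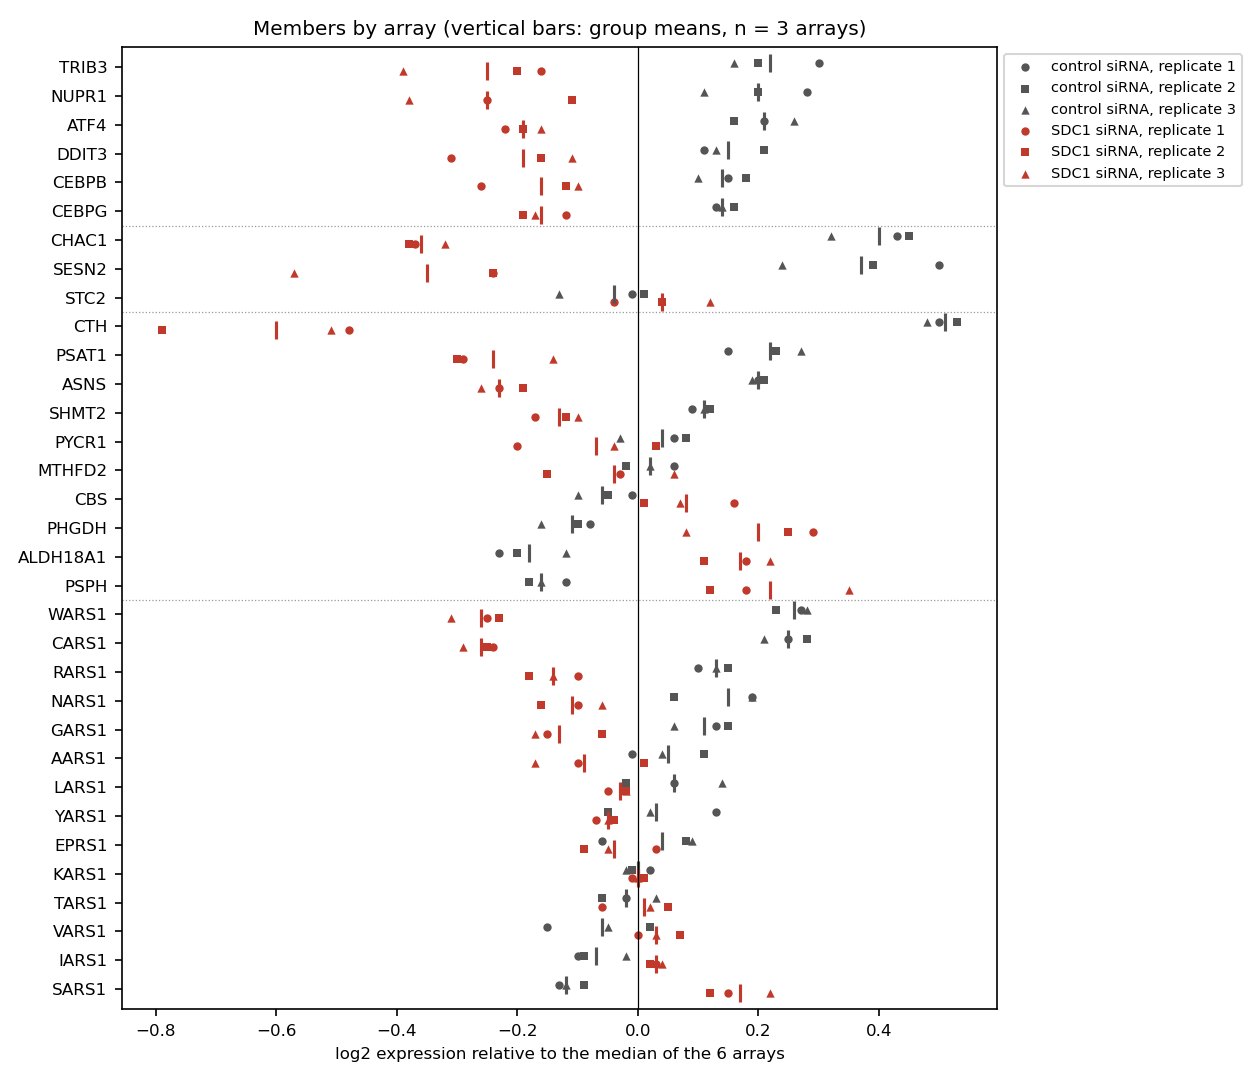
Log2 expression of the 33 members relative to the median of the 6 arrays, by role (dotted lines), with control siRNA arrays in grey, SDC1 siRNA arrays in red and bars at the group means (n = 3). For the 6 regulators at the top every red point lies left of every grey point, whereas PHGDH, ALDH18A1 and PSPH show the opposite order.

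SDC1 itself checked the labels: it was at 1.13, 1.32 and 1.09 in control arrays and -1.14, -1.16 and -1.43 in SDC1 siRNA arrays, 18.7% of control. The deposited values were centred and gave no levels, so the breast line could not be checked against its markers. By the coarse brightness class 4 of 5 mesenchymal and 6 of 7 luminal marker genes were in the brightest class, so the class did not tell them apart. Of the mesenchymal genes 2 were called lower and 1 higher, and of the luminal genes 1 lower and 2 higher. The poly-A spike-in controls, RNAs added before labelling, averaged 0.35 to 0.60 in 3 arrays (1 of control siRNA, 2 of SDC1 siRNA) and -0.41 to -0.38 in the other 3. Both of these sets of arrays, read as batches, hold both groups, and the median of the members was -0.23 within the first and -0.21 within the second. All 21 called members had the same sign in both. The 3' minus 5' signal of ACTB, a sign of RNA quality, was 0.11, -0.08 and -0.16 in control arrays and 0.03, 0.05 and -0.09 in SDC1 siRNA arrays. It did not separate the groups but followed the spike-in sets, at 0.03 to 0.11 in the first and -0.16 to -0.08 in the second.

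The regulators fell together, all 6 of 6, where 15.2% of all genes were called lower and 23.3% of the brightest class, which holds all 6. ATF4 was at 0.21, 0.16 and 0.26 in control arrays and -0.22, -0.19 and -0.16 in SDC1 siRNA arrays. It stood at 75.8% of control, or -0.40 on the log2 scale (SE 0.059, adjusted p = 0.00113 by limma). In such bulk RNA, fewer cells that express a gene and less of its RNA per cell cannot be told apart. TRIB3, a pseudokinase induced by ATF4 that restrains it in turn, was at 0.30, 0.20 and 0.16 in control arrays and -0.16, -0.20 and -0.39 after SDC1 siRNA. It fell the most of the regulators, by 0.47 (SE 0.077, adjusted p = 0.00199), and both of its probe sets gave this size, -0.46 and -0.47. The lowest of its 6 values was that of SDC1 siRNA replicate 3.

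NUPR1, a small stress-induced chromatin protein, was at 0.28, 0.20 and 0.11 in control arrays and -0.25, -0.11 and -0.38 after SDC1 siRNA, a fold change of -0.44 (SE 0.081, adjusted p = 0.00376). DDIT3, which encodes CHOP, the factor tied to cell death under prolonged stress, was at 0.11, 0.21 and 0.13 in control arrays and -0.31, -0.16 and -0.11 after SDC1 siRNA, or -0.34 (SE 0.072, adjusted p = 0.00779). In both genes the SDC1 siRNA arrays were spread more widely than the controls (SD 0.13 against 0.081 for NUPR1, 0.11 against 0.055 for DDIT3), yet all 3 lay below every control.

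CEBPB and CEBPG encode C/EBP factors that can pair with ATF4 on the composite element. CEBPB was at 0.15, 0.18 and 0.10 in control arrays and -0.26, -0.12 and -0.10 after SDC1 siRNA, and fell by 0.30 (SE 0.066, adjusted p = 0.00864). CEBPG was at 0.13, 0.16 and 0.14 in control arrays and -0.12, -0.19 and -0.17 after SDC1 siRNA, also a fold change of -0.30 (SE 0.056, adjusted p = 0.00384). Its gene value averages probe sets that differed in size: one gave -0.52 (adjusted p = 9.82e-04 in the fit over probe sets) and the other -0.09 (adjusted p = 0.415).

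Of the 3 stress effectors, CHAC1 and SESN2 fell (66.7%, against 15.2% of all genes and 23.3% of the brightest class) and STC2 was not called. CHAC1, which breaks down glutathione in the cytosol, was at 0.43, 0.45 and 0.32 in control arrays and -0.37, -0.38 and -0.32 after SDC1 siRNA, 59.2% of control (-0.76, SE 0.062, adjusted p = 5.77e-05). SESN2, a leucine-binding inhibitor of mTORC1 signalling, was at 0.50, 0.39 and 0.24 in control arrays and -0.24, -0.24 and -0.57 after SDC1 siRNA. It was at 60.6% of control (-0.72, SE 0.11, adjusted p = 0.00121), and its dimmer probe set gave -0.91. CHAC1 arrays lay close together within each group, while SESN2 was lowest in SDC1 siRNA replicate 3. STC2, a secreted glycoprotein, had overlapping groups and a fold change of 0.08 (SE 0.069, adjusted p = 0.447); it was at -0.04 with all its probe sets averaged.

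**Figure D3:**
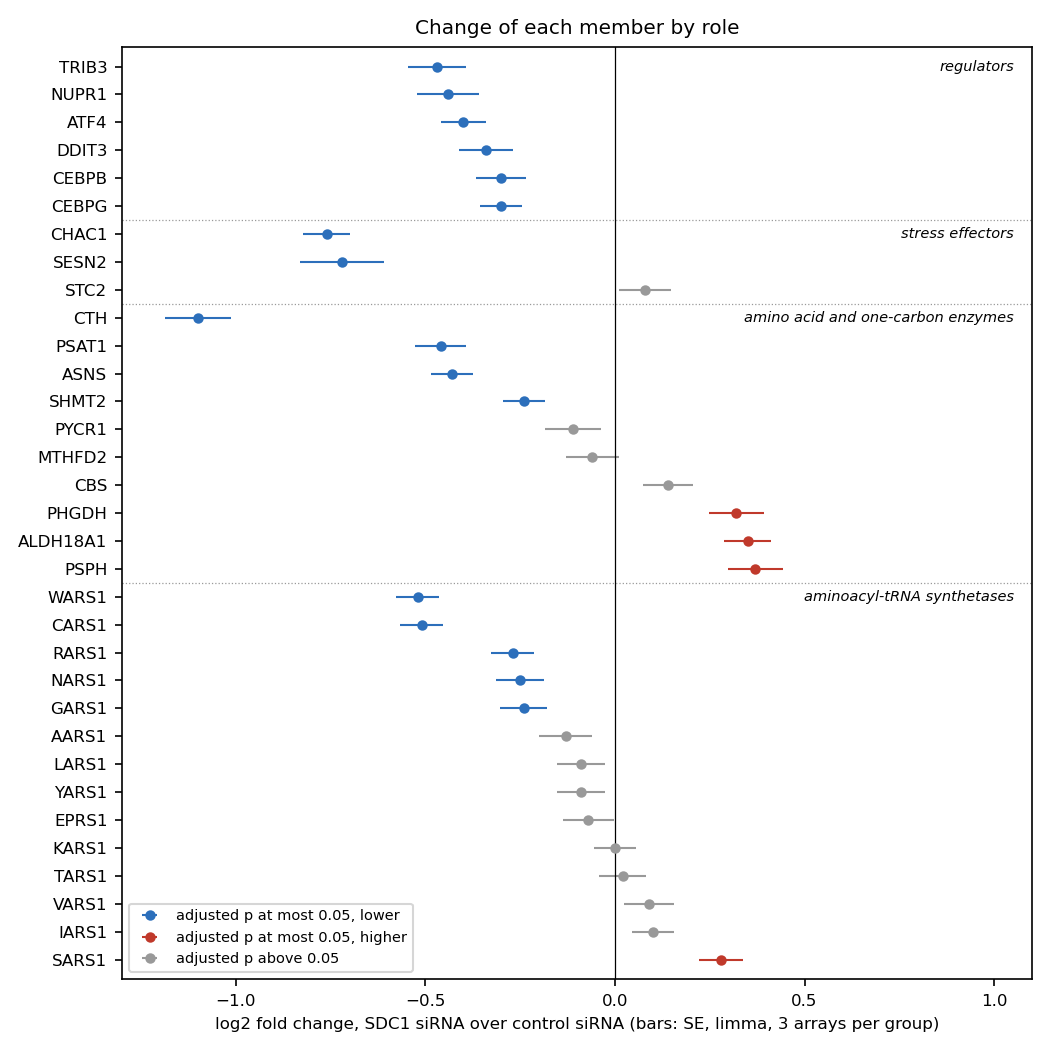
Log2 fold change (SDC1 siRNA over control siRNA) of each member with its SE from limma, by role; blue and red mark an adjusted p of at most 0.05, lower and higher. The regulators form a narrow band from -0.47 to -0.30, whereas the enzymes spread from -1.10 for CTH to 0.37 for PSPH.

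The metabolic enzymes moved in both directions, with 4 of 10 lower (40.0%), 3 higher (30.0%) and 3 not called, and a median of -0.08. The background was 15.2% lower and 13.0% higher over all genes, and 23.3% and 18.1% in the brightest class, which holds 9 of the 10. CTH, cystathionine gamma-lyase, which releases cysteine in the last step of its synthesis from methionine, showed the largest change of all members. It was at 0.50, 0.53 and 0.48 in control arrays and -0.48, -0.79 and -0.51 after SDC1 siRNA. This is a 2.15-fold loss, 46.6% of control (-1.10, SE 0.087, adjusted p = 4.70e-05), and its probe sets gave -1.10 and -1.08. SDC1 siRNA replicate 2 was the lowest, and the gap between the groups exceeded the range within each.

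CBS, the enzyme just before CTH in the same route, was at -0.01, -0.05 and -0.10 in control arrays and 0.16, 0.01 and 0.07 after SDC1 siRNA. Its fold change of 0.14 (SE 0.065, adjusted p = 0.156) was not called. The groups did not overlap, but by small margins, and 1 of its 3 probe sets was called higher (0.30) while the others gave -0.01 and 0.12. ASNS, asparagine synthetase and a classic CARE-driven gene, was at 0.20, 0.21 and 0.19 in control arrays and -0.23, -0.19 and -0.26 after SDC1 siRNA. It fell by 0.43 (SE 0.056, adjusted p = 6.21e-04). A probe set in the dimmest class gave 0.00, and with it averaged in the gene was at -0.21 (adjusted p = 0.0173; 1.76e-04 to 0.0173 over all alternatives).

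In the serine pathway genes were called in both directions, with PHGDH read through 1 probe set. PHGDH, which commits a glycolytic intermediate to serine synthesis, was at -0.08, -0.10 and -0.16 in control arrays and 0.29, 0.25 and 0.08 after SDC1 siRNA, a rise of 0.32 (SE 0.072, adjusted p = 0.0109). PSAT1, the aminotransferase that follows it, was at 0.15, 0.23 and 0.27 in control arrays and -0.29, -0.30 and -0.14 after SDC1 siRNA, a fall of 0.46 (SE 0.068, adjusted p = 0.00117). Neither gene had overlapping groups, and both PSAT1 probe sets fell (-0.50 and -0.43).

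PSPH, the phosphatase that completes serine synthesis, was at -0.12, -0.18 and -0.16 in control arrays and 0.18, 0.12 and 0.35 after SDC1 siRNA, 0.37 higher (SE 0.073, adjusted p = 0.00539). This value averages a probe set at 0.68 (adjusted p = 0.00187) and another at 0.07 (adjusted p = 0.585). With brightness classes read from all 6 arrays only the latter remained and PSPH was at 0.07 (adjusted p = 0.469; 0.00245 to 0.469 over all alternatives). The rise of PSPH therefore rests on a single probe set.

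SHMT2 and MTHFD2 are the mitochondrial enzymes that take serine into the folate cycle. SHMT2 was at 0.09, 0.12 and 0.11 in control arrays and -0.17, -0.12 and -0.10 after SDC1 siRNA, lower by a small amount (-0.24, SE 0.056, adjusted p = 0.0135). Its 3 probe sets gave -0.28, -0.24 and -0.19, and its call was lost without SDC1 siRNA replicate 1 (adjusted p = 0.0565; 0.00602 to 0.0565 over all alternatives). MTHFD2 was at 0.06, -0.02 and 0.02 in control arrays and -0.03, -0.15 and 0.06 after SDC1 siRNA, with overlapping groups and a fold change of -0.06 (SE 0.070, adjusted p = 0.589). A dimmer MTHFD2 probe set, of the kind marked as liable to cross-hybridise and left out of the gene value, gave -0.66, and with it averaged in MTHFD2 was called at -0.36 (adjusted p = 0.00645; 0.00645 to 0.976 over all alternatives).

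In proline synthesis, ALDH18A1, which begins the route from glutamate, was at -0.23, -0.20 and -0.12 in control arrays and 0.18, 0.11 and 0.22 after SDC1 siRNA. It rose by 0.35 (SE 0.062, adjusted p = 0.00317), with both probe sets called (0.31 and 0.39). PYCR1, the mitochondrial reductase that ends it, was at -0.11 (SE 0.074, adjusted p = 0.335).

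Of the 14 cytosolic aminoacyl-tRNA synthetases measured, which attach amino acids to their tRNAs, 5 fell, 1 was called higher and 8 were not called. These shares of 35.7% lower and 7.14% higher stand against 23.3% and 18.1% of genes in the brightest class, which holds all 14. The median was -0.09. WARS1, the tryptophan enzyme, which interferon also induces, was at 0.27, 0.23 and 0.28 in control arrays and -0.25, -0.23 and -0.31 after SDC1 siRNA, 69.6% of control (-0.52, SE 0.057, adjusted p = 2.44e-04). CARS1, the cysteine enzyme, was at 0.25, 0.28 and 0.21 in control arrays and -0.24, -0.25 and -0.29 after SDC1 siRNA, 70.4% of control (-0.51, SE 0.057, adjusted p = 2.78e-04). No other synthetase changed by 0.5 or more, and in both genes the arrays of each group lay close together. Both WARS1 probe sets and 3 of the 4 for CARS1 fell, by 0.40 or more, and the fourth CARS1 probe set, of a dimmer class, gave -0.03.

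RARS1, for arginine, was at 0.10, 0.15 and 0.13 in control arrays and -0.10, -0.18 and -0.14 after SDC1 siRNA, a fall of 0.27 (SE 0.057, adjusted p = 0.00837). NARS1, for asparagine, and GARS1, for glycine, fell by 0.25 and 0.24 (adjusted p = 0.0174 and 0.0202). NARS1 was at 0.19, 0.06 and 0.19 in control arrays and -0.10, -0.16 and -0.06 after SDC1 siRNA. GARS1 was at 0.13, 0.15 and 0.06 in control arrays and -0.15, -0.06 and -0.17 after SDC1 siRNA. The groups did not overlap in either gene, and both calls were near the threshold. NARS1 lost it without control replicate 1, control replicate 3 or SDC1 siRNA replicate 2 (adjusted p = 0.0579, 0.0565 and 0.0676; 0.00875 to 0.0676 over all alternatives). GARS1 lost it without control replicate 1, control replicate 2, SDC1 siRNA replicate 1 or SDC1 siRNA replicate 3 (adjusted p = 0.0597, 0.0668, 0.0697 and 0.0590; 0.0101 to 0.0697 over all alternatives).

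SARS1, for serine, was the synthetase called higher, and its probe sets contradicted each other. The gene value was -0.13, -0.09 and -0.12 in control arrays and 0.15, 0.12 and 0.22 after SDC1 siRNA (0.28, SE 0.058, adjusted p = 0.00702). One probe set fell by 0.31 (SE 0.070, adjusted p = 0.0146) and the other rose by 0.87 (SE 0.088, adjusted p = 2.41e-04). With brightness classes from all 6 arrays the first alone was read and SARS1 was at -0.31 (adjusted p = 0.00462). In the other 13 alternatives, which read both probe sets, SARS1 stayed called higher. Over all alternatives, of either direction, its adjusted p ran from 0.00286 to 0.0251. The direction of SARS1 is therefore not settled by these values. It was the only member whose probe sets were called both ways.

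The uncalled synthetases were AARS1 (-0.13), LARS1 and YARS1 (both -0.09), EPRS1 (-0.07), KARS1 (0.00), TARS1 (0.02), VARS1 (0.09) and IARS1 (0.10). Counting the other uncalled members as well, the 12 fold changes ran from -0.13 to 0.14 with SE from 0.055 to 0.074. Changes of the size seen in WARS1 or CARS1 lay several SE away from each of these estimates. The SE does not cover the choice of probe set: MTHFD2, among the 12, had a left-out probe set at -0.66. IARS1 was higher and LARS1 lower in every SDC1 siRNA array than in every control array without passing the test, LARS1 by less than the rounding of the printed values (-0.02 on either side).

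**Figure D4:**
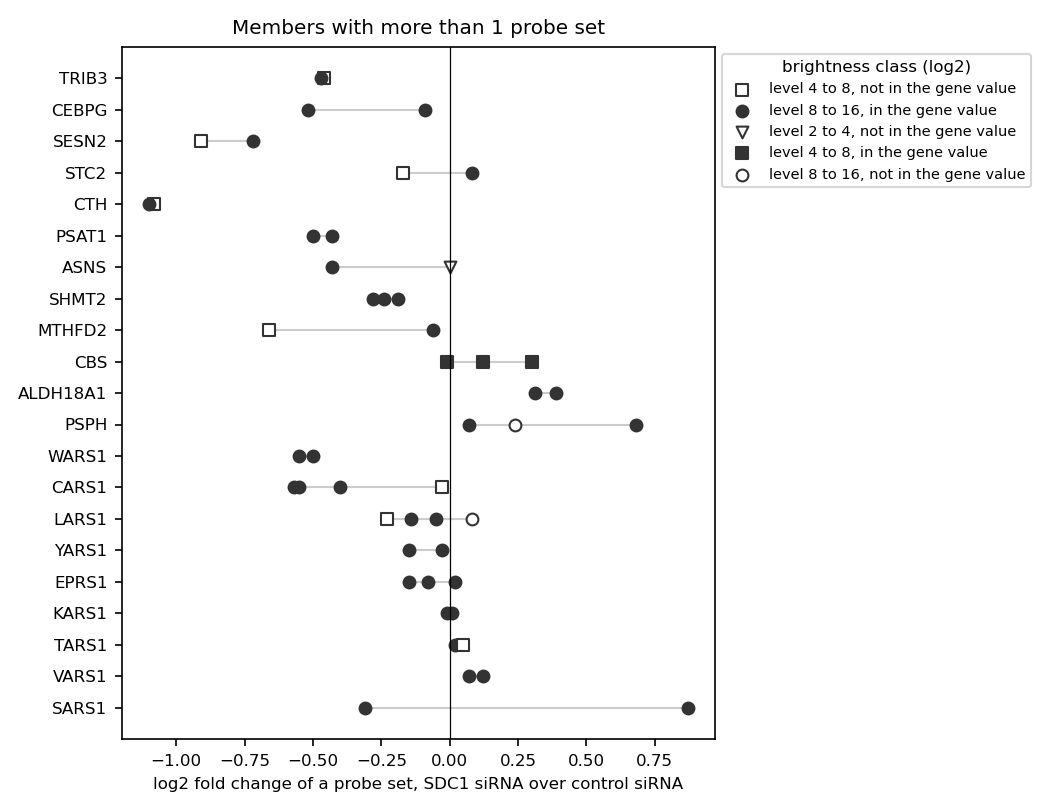
Log2 fold change of each probe set for the 21 members that have more than 1; filled symbols entered the gene value and open ones did not, and shapes give the brightness class. The probe sets of CTH, PSAT1 and WARS1 lie together, while those of SARS1 span from -0.31 to 0.87.

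Calls differed among the probe sets of 8 of the 21 members with more than 1. Of the 62 probe sets 27 were called lower, 6 higher and 29 not, where 12.0% of all single-gene probe sets were called lower and 10.6% higher.

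Other genes of the pathway, listed by role, moved less uniformly than the regulators. Of 18 genes that set eIF2 activity 5 fell (27.8%) and 4 rose (22.2%), close to the 23.3% and 18.1% of the brightest class, which holds 16 of them, with a median of -0.06. EIF2S2, the beta subunit of eIF2, fell by 1.53 (SE 0.056, adjusted p = 1.58e-06), and its dimmer probe set gave -0.62. It was at 0.76, 0.75 and 0.75 in control arrays and -0.75, -0.82 and -0.76 after SDC1 siRNA, nearly constant within each group. PPP1R15A, which directs a phosphatase to eIF2 and closes the ATF4 feedback loop, fell by 0.85 (SE 0.089, adjusted p = 1.95e-04). EIF2AK2, the eIF2 kinase that senses double-stranded RNA, rose by 0.59. EIF2AK4, the kinase that senses uncharged tRNA, and EIF2AK3, the endoplasmic reticulum kinase, were at -0.28 (adjusted p = 0.0134) and -0.08 (adjusted p = 0.510); these values were singled out after they were seen.

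Of 23 measured other ATF4 targets 8 fell (34.8%) and 1 rose (4.35%), with a median of -0.08. The background was 15.2% and 13.0% over all genes, and 23.3% and 18.1% in the brightest class, which holds 19 of them. XPOT, the exportin that carries tRNAs out of the nucleus, was at 0.92, 0.83 and 0.92 in control arrays and -0.92, -0.94 and -0.90 after SDC1 siRNA. It fell by 1.81 (SE 0.059, adjusted p = 1.09e-06), more than any member, and its probe sets gave -1.60 and -2.01. HERPUD1 and KLHL24 were at -0.65 each. With all probe sets averaged HERPUD1 was at -0.35, and the KLHL24 probe sets ran from -1.15 to 0.16. Among uncalled targets, some probe sets left out of the gene value were called: GDF15 (-1.13), JDP2 (-0.49) and RHBDD1 (0.62). That of GDF15 is of the kind marked as liable to cross-hybridise. These probe sets were singled out after their values were seen.

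Among 11 amino acid transporters that ATF4 induces 4 fell (36.4%) and 0 rose, with 7 not called. Called lower were 15.2% of all genes and 23.3% of the brightest class, which holds 8 of the 11. The uncalled include SLC1A4, a transporter of small neutral amino acids, singled out after its values were seen. Its only probe set in the brightest class gave 0.02, while 3 of the 4 in the class below fell (-0.91, -0.61 and -0.56). With all probe sets averaged 5 of the 11 were lower. SLC7A11, the cystine importer, fell by 0.73 (SE 0.078, adjusted p = 2.06e-04), and its 3 probe sets gave -0.89, -0.78 and -0.68. The glutamine transporters SLC38A2 and SLC1A5 fell by 0.47 and 0.36. SLC43A1 was at -0.27 (adjusted p = 0.0255), a call lost without any of the 3 control arrays or without SDC1 siRNA replicate 3 (adjusted p 0.0527 to 0.0711; 0.0144 to 0.0711 over all alternatives).

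**Figure D5:**
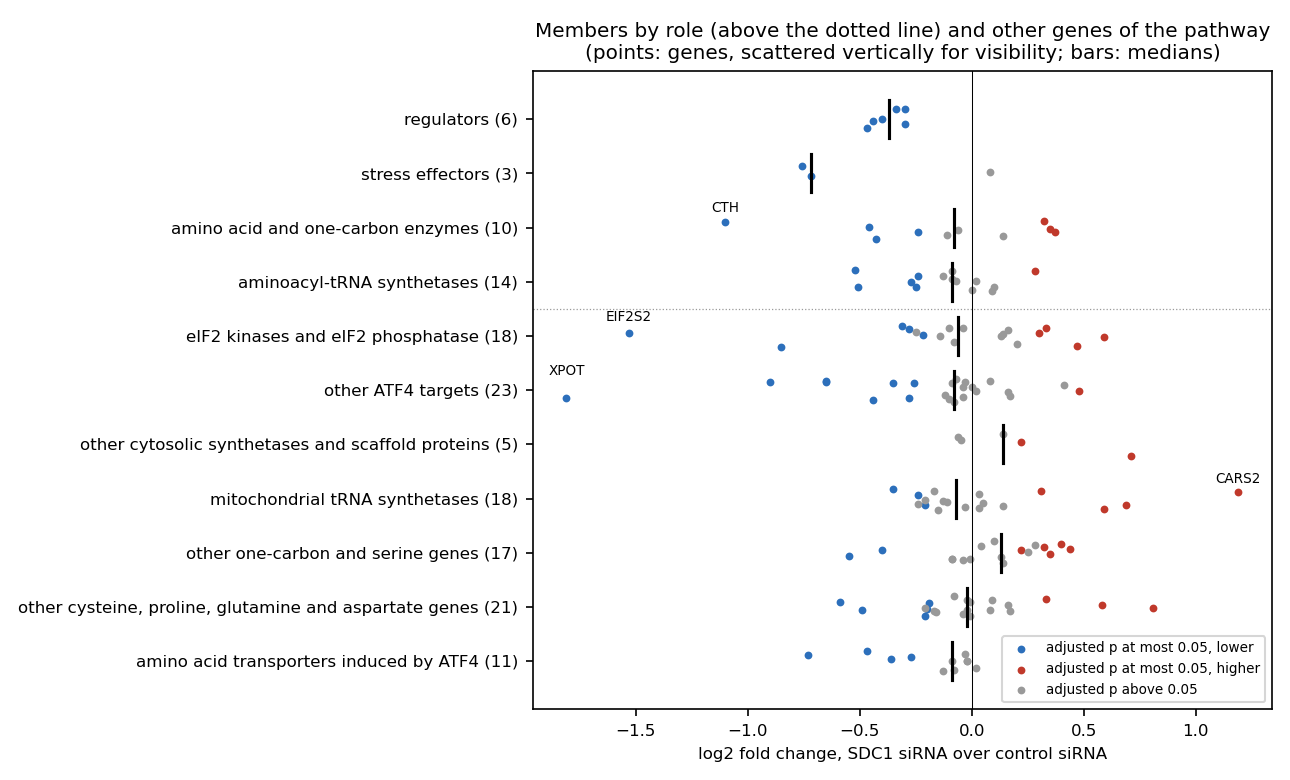
Log2 fold change (SDC1 siRNA over control siRNA) of the members by role, above the dotted line, and of other pathway genes, below it; points are genes, bars are medians, and colours mark an adjusted p of at most 0.05. The regulators lie at -0.47 to -0.30 with a median of -0.37 and the stress effectors have a median of -0.72, while the other lists have medians between -0.09 and 0.14.

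The list of mitochondrial synthetases also holds QRSL1, GATB and GATC, subunits of an amidotransferase and not synthetases. Of its 18 measured genes 3 were lower (16.7%), among them GATB (-0.21), and 4 higher (22.2%), with a median of -0.07. These shares were near the 15.2% and 13.0% of all genes and the 23.3% and 18.1% of the brightest class. CARS2, for cysteine, rose by 1.19 (SE 0.056, adjusted p = 3.59e-06). This value was read from its only probe set in the brightest class, and its other probe sets gave -0.05 to 0.26. SARS2 and WARS2 rose by 0.69 and 0.59. With all probe sets averaged CARS2 was at 0.32 (adjusted p = 0.00848) and WARS2 at 0.21. Of 5 other cytosolic genes measured, synthetase genes and the scaffold protein gene AIMP1, 2 rose (40.0%) and 0 fell. Called higher were 13.0% of all genes and 18.1% of the brightest class, which holds 4 of the 5. TARS3 was at 0.71, or 0.43 with all probe sets averaged. FARSB, a subunit of the phenylalanine enzyme, was at 0.22 (adjusted p = 0.0203). Its call was lost without any 1 of the arrays other than control replicate 3 (adjusted p 0.0515 to 0.0637; 2.06e-04 to 0.0637 over all alternatives). Its other probe sets gave 0.56 and 0.92, and with all averaged it was at 0.56 (adjusted p = 2.06e-04).

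Other genes of serine and folate metabolism numbered 17, with 2 lower (11.8%), 5 higher (29.4%) and a median of 0.13. The background was 15.2% lower and 13.0% higher over all genes, and 23.3% and 18.1% in the brightest class, which holds 12 of them. MTHFD2L, a relative of MTHFD2, was at 0.44 (adjusted p = 6.69e-04), with probe sets from -0.46 to 0.50 and 0.12 (adjusted p = 0.160) with all averaged. GCSH of the glycine cleavage system rose by 0.40. The mitochondrial serine carrier SFXN1 was at -0.40 (adjusted p = 0.00168), but at -0.08 (adjusted p = 0.412) with all probe sets averaged. The higher count was 3 without control replicate 2, SDC1 siRNA replicate 1 or SDC1 siRNA replicate 3.

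Genes of cysteine, proline, glutamine and aspartate metabolism outside the member list had 5 of 21 lower (23.8%) and 3 higher (14.3%), near the background of the brightest class (23.3% and 18.1%), with a median of -0.02. AHCY, which supplies homocysteine to the route of CBS and CTH, rose by 0.81 (SE 0.069, adjusted p = 6.69e-05). GOT1, the cytosolic aspartate aminotransferase, fell by 0.49, and GLUL, glutamine synthetase, rose by 0.58. The lower count was 2 without control replicate 1, control replicate 2, SDC1 siRNA replicate 1 or SDC1 siRNA replicate 2, and 3 without SDC1 siRNA replicate 3.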

How the data were processed

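Gene expression was measured on 6 Affymetrix arrays. The deposited values were processed with RMA per the submitters' processing notes and are taken as log2 expression, since RMA gives log2 values and the values move in steps that fit it; the base itself is inferred, and every fold and percent of control rests on it; no source used here gives its version or other steps. Every probe set has a median within 1e-06 of 0 over the arrays, a centring read from the values. The steps between values, within 0.1 of a step, place a probe set in a coarse class of log2 level 2 to 4, 4 to 8 or 8 to 16. The class was read from the 3 highest of the 6 values, so a probe set can reach it only through the group where it is higher. To get a gene's value, its probe sets tied to it alone were averaged within its brightest class, with those ending in _x_at used only where a gene has no other. The array annotation was updated to RefSeq symbols by gene identifier. All genes were fitted with limma 3.58.1 (lmFit, eBayes, 2-sided) in R 4.3.3, and all probe sets in a separate fit. The script was tested on simulated data. The number of arrays limits precision: the median SE over genes was 0.075. Members, lists and tests were chosen with earlier results of these data known. Every member is named, and array values are given for the 4 called members of largest change in each role, ATF4, DDIT3 and members whose probe sets differed in call; those of the other called members were added after their values were seen. In each other list the 3 genes of lowest p are named, or all called where 5 or fewer were. Alternatives were the scaling, the probe sets of a gene, the brightness class, a filter on dim genes, the variance prior, blocks and leaving out each array.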

Additional observations from a re-analysis of the deposited data

How the results depend on the processing

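Under 14 alternatives, 16 of the 21 called members kept their direction and their call in all; the exceptions, PSPH, SHMT2, NARS1, GARS1 and SARS1, are given above. The median of the members was -0.25 after quantile normalization, -0.22 with a block for the spike-in batch and -0.23 to -0.21 with 1 array left out. Leaving out an array gave 15 to 16 members lower and 4 higher, and 2457 to 2686 genes lower and 2026 to 2376 higher over all genes. With brightness classes from all 6 arrays 2 members were higher and SARS1 was at -0.31, since fewer of their probe sets were read. Among uncalled members the sign turned for STC2 (-0.04 with all probe sets averaged and with classes from all 6 arrays), for KARS1 (-0.01 after quantile normalization, after centring each array on its median and with that block, and -0.01 to -0.00 without control replicate 2, control replicate 3 or SDC1 siRNA replicate 2) and for TARS1 (-0.00 without SDC1 siRNA replicate 2, within a range of -0.00 to 0.06 with an array left out). With the replicate number as a block 17 members were lower, 4 higher and 9918 probe sets called, and the block changed no member's call. Same-numbered arrays had correlations of their deviations from the group means of 0.01, 0.08 and 0.10, and not every array correlated best with its own number, so the numbers were not taken as pairs. Signal over background is not among the values, so no detection limit can be given.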
